A study of Mus musculus with 9 samples.

Results

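The genes described here are 10 members of the pericellular proteolysis machinery: the membrane proteases Adam8, Adam10 and Adam17, the matrix metalloproteases Mmp2, Mmp3, Mmp9 and Mmp14, and the inhibitors Timp1, Timp2 and Timp3. Every probe set whose annotation names 1 of these genes alone was taken, which gave 25 of the 22626 probe sets analysed. Timp2 had 6 probe sets, Timp3 had 4, Adam10 and Adam17 had 3 each, Mmp2, Mmp9 and Mmp14 had 2 each, and Adam8, Mmp3 and Timp1 had 1 each. Probe sets of 1 gene read the same RNA and are not replicates.

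RNA came from MLP29 cells, a mouse hepatic progenitor line, hybridised to 9 Affymetrix Mouse430A_2 arrays in 3 experiments that each held every condition. All cells were first starved in 0.1% serum for at least 16 h. They then received, for 24 h, the BMB5 antibody against α5β1 integrin at 10 µg/ml (n = 3) or hepatocyte growth factor/scatter factor (HGF/SF1) at 20 ng/ml (n = 3), or were left untreated (n = 3). α5β1 integrin is a receptor for fibronectin, and HGF/SF1 is the ligand of the Met receptor. No array with a control antibody was analysed, so blockade of the integrin and the addition of an antibody cannot be told apart. The comparisons ask how the transcripts of these proteases and inhibitors stood in cells made to scatter by either route.

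Matrix metalloproteases are zinc proteases, secreted or anchored in the membrane, that are made as inactive precursors and cut collagens, laminins, fibronectin and other matrix proteins. Adam proteases sit in the membrane and release the outer parts of receptors, adhesion molecules and growth factor precursors, a process called shedding. The Timps are secreted inhibitors that occupy the active site of Mmps and of some Adam proteases. Timp2 also forms part of the complex with Mmp14 in which pro-Mmp2 is activated. In the liver these genes are known from matrix turnover in regeneration and fibrosis.

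Values are log2 probe set summaries, given for experiments 1, 2 and 3 in that order, and differences are on the same scale. Array medians lay between 5.91 and 6.08, and the precision is limited by 3 arrays a condition. Of the liver progenitor and biliary markers, 7 of 10 measured lay above 6.02, the median of all probe sets, among them the keratins Krt8, Krt18 and Krt19, while Epcam, at 4.32 after antibody, 4.26 after HGF/SF1 and 4.42 in untreated cells, Sox9 and Prom1 did not. None of the 11 fibroblast and stellate, 8 endothelial and 7 hepatocyte markers lay above it. A probe set was called higher or lower at an unadjusted p under 0.05 (limma, two-sided), and adjusted p-values (Benjamini-Hochberg over all 22626 probe sets) are given beside it. Over all probe sets, 1025 were called higher and 1649 lower between antibody and untreated cells, or 1324 and 1320 with every array centred on its median. For HGF/SF1 against untreated the numbers were 113 and 79, or 133 and 23 with centring.

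Of the member probe sets, 5 of 25 (20%) were called between antibody and untreated cells, against 11.8% of all probe sets. Adam8 (1 probe set) and Timp3 (1 of 4) were higher, where the background was 4.53%, and Timp2 (3 of 6) was lower, where it was 7.29%. None of the 25 was called between HGF/SF1 and untreated cells, against 0.849% of all probe sets. Between antibody and HGF/SF1, 5 of 25 were called, again in Adam8, Timp2 and Timp3, against 13.2% of all probe sets (5.20% higher, 7.96% lower). The 2 comparisons of the antibody share its arrays. No member had an adjusted p under 0.05 in limma, a mark passed by 0.0221%, 0% and 0.0221% of all probe sets in the 3 comparisons. When the experiment entered the fit as a block, 9, 1 and 9 member probe sets were called, against 18.2%, 1.82% and 19.8%. Taking the brightest probe set of a gene, 2 of 10 members were called between antibody and untreated cells, against 12.6% of all genes. The ranges of the arrays did not overlap for 7 member probe sets between antibody and untreated (14.2% of all), 0 between HGF/SF1 and untreated (3.69%) and 5 between antibody and HGF/SF1 (13.8%).

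**Figure D1:**
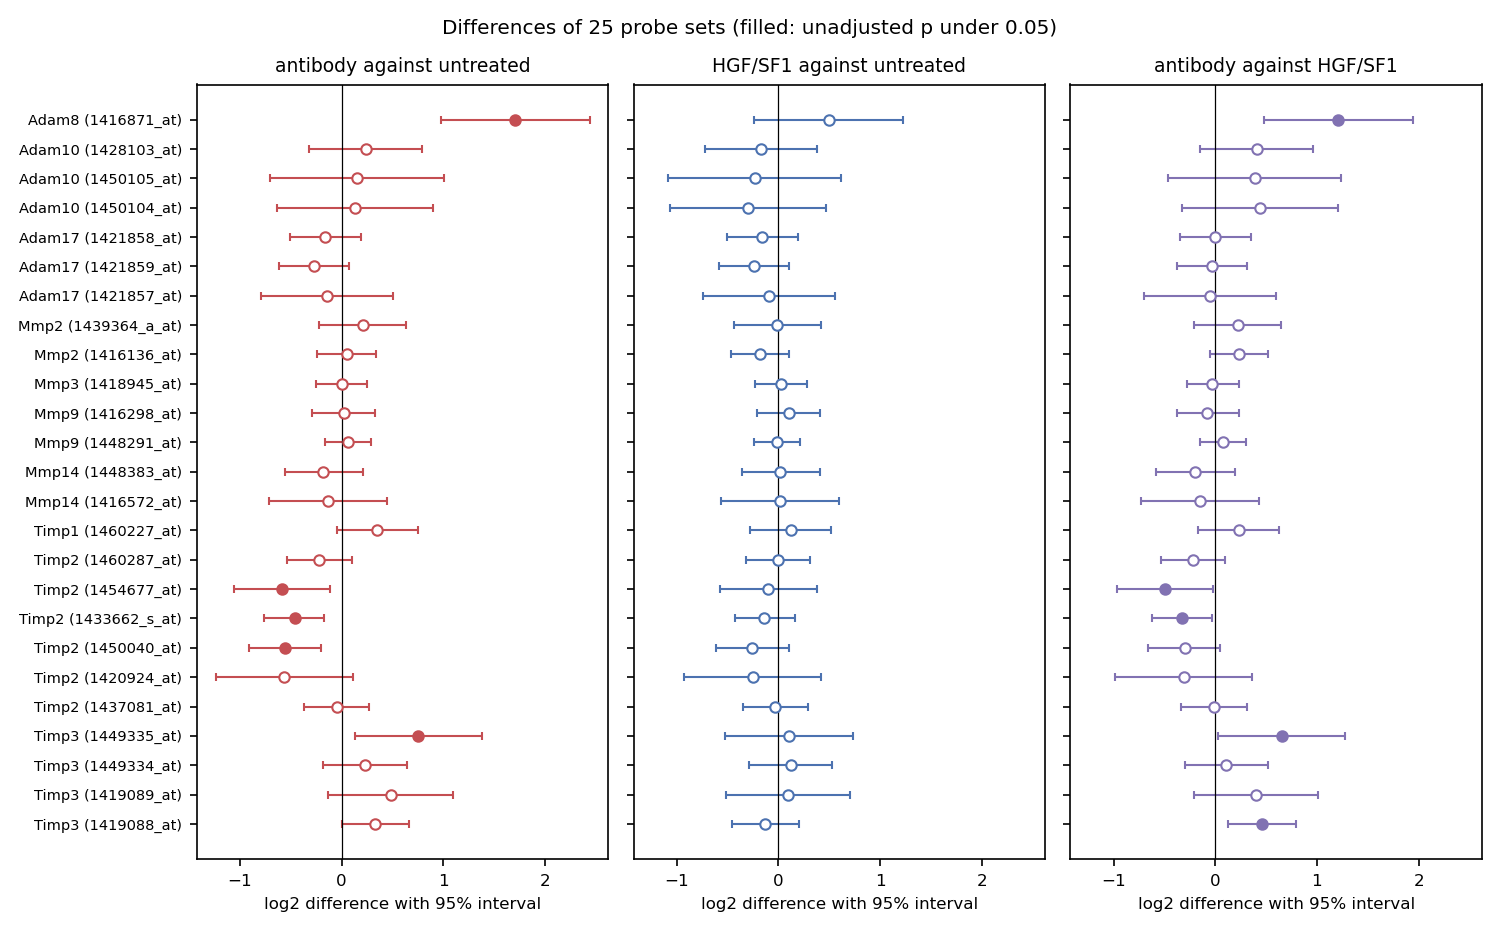
Differences in log2 with 95% confidence intervals (limma) for each of the 25 member probe sets, for the 3 pairs of conditions, with filled points for called probe sets. Adam8 stood at 1.71 for antibody against untreated, 3 probe sets of Timp2 between -0.59 and -0.46, and every interval for HGF/SF1 against untreated included 0.

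The promoters of the 3 genes with called probe sets are printed first, with that of Mmp3 beside them as the member promoter that held an AP-1 site, the recognition sequence of Fos and Jun factors. Each runs from 250 bases before to 50 after the annotated start (RefSeq, GRCm38.p6), 5′ to 3′ on the strand of the gene. Capitals mark GC boxes (GGGCGG, bound by Sp1), AP-1 sites (TGANTCA) and TATA boxes (TATAAA), searched on both strands.
Adam8 promoter, chr7:139992513-139992812 (-): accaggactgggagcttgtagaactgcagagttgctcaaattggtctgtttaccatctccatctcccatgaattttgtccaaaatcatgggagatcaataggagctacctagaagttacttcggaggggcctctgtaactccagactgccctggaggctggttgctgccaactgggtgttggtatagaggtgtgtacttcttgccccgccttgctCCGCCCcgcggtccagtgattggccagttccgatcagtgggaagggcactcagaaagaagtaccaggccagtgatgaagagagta
Timp2 promoter, chr11:118355362-118355661 (-): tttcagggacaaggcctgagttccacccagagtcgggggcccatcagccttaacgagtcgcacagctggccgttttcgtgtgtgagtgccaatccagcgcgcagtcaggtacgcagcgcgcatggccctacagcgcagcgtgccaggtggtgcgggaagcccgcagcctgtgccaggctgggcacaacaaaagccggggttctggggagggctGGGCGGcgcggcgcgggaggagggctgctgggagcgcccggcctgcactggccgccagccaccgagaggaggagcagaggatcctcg
Timp3 promoter, chr10:86300162-86300461 (+): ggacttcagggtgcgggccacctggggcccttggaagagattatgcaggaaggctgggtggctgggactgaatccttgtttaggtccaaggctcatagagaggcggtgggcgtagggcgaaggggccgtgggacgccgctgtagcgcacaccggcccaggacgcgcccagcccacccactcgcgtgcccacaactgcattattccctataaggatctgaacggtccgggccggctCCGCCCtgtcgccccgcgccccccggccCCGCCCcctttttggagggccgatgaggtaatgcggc
Mmp3 promoter, chr9:7445572-7445871 (+): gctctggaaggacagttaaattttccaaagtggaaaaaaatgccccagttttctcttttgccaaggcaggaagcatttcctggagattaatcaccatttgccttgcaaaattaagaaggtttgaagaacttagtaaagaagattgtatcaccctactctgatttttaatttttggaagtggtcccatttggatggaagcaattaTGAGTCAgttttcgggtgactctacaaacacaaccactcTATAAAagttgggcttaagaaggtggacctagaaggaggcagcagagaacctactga
A GC box lay at -35 from the start of Adam8 and at -37 from that of Timp2, and Timp3 had GC boxes at -15 and 14. Mmp3 had its AP-1 site at -46 and a TATA box at -7. Promoter sequence was at hand for 8 of the 10 members. The 8 differed in these letters: 7 held a GC box, against 35.7% of 32851 promoters of the same length, and 1 an AP-1 site, against 7.81%. Mmp3 was the 1 member promoter with a TATA box, against 13.6% of promoters. ACGTG, the core of the hypoxia response element, was in the windows of Adam10, Mmp14 and Timp1 and in 19.6% of promoters. A match is a run of letters and not a measured binding site.

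Adam8 is a sheddase known from leukocytes and from invading cells, and unlike Adam10 and Adam17 it is activated by removing its own prodomain. Its single probe set (1416871_at) had values of 8.46, 8.33 and 9.02 after antibody, 8.10, 6.84 and 7.24 after HGF/SF1, and 6.98, 6.61 and 7.08 in untreated cells. All 3 antibody arrays lay above all HGF/SF1 and all untreated arrays, whereas the HGF/SF1 arrays overlapped the untreated ones. The means were 8.60 ± 0.37 after antibody, 7.39 ± 0.64 after HGF/SF1 and 6.89 ± 0.25 in untreated cells (SD, n = 3 each). Antibody was above untreated by 1.71 (SE 0.32, 95% confidence interval 0.98 to 2.44), or 3.27-fold (limma, adjusted p = 0.162). The difference was 1.47, 1.71 and 1.94 in experiments 1, 2 and 3. Antibody was above HGF/SF1 by 1.21 (SE 0.32), or 2.32-fold (adjusted p = 0.190), with 0.36, 1.49 and 1.79 in the 3 experiments. The small gap of experiment 1 came with the highest HGF/SF1 value of the 3, 8.10. Without experiment 3 the difference from HGF/SF1 was 0.92 and no longer called. That from untreated was called in all 19 alternative settings run, at 1.50 to 1.85.

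The difference of Adam8 between HGF/SF1 and untreated cells was 0.50 (SE 0.32, 95% confidence interval -0.24 to 1.23) and was not called. It was 1.11 in experiment 1 and 0.23 and 0.15 in experiments 2 and 3. Leaving out the HGF/SF1 array of experiment 2 gave 0.77, which was called.

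**Figure D2:**
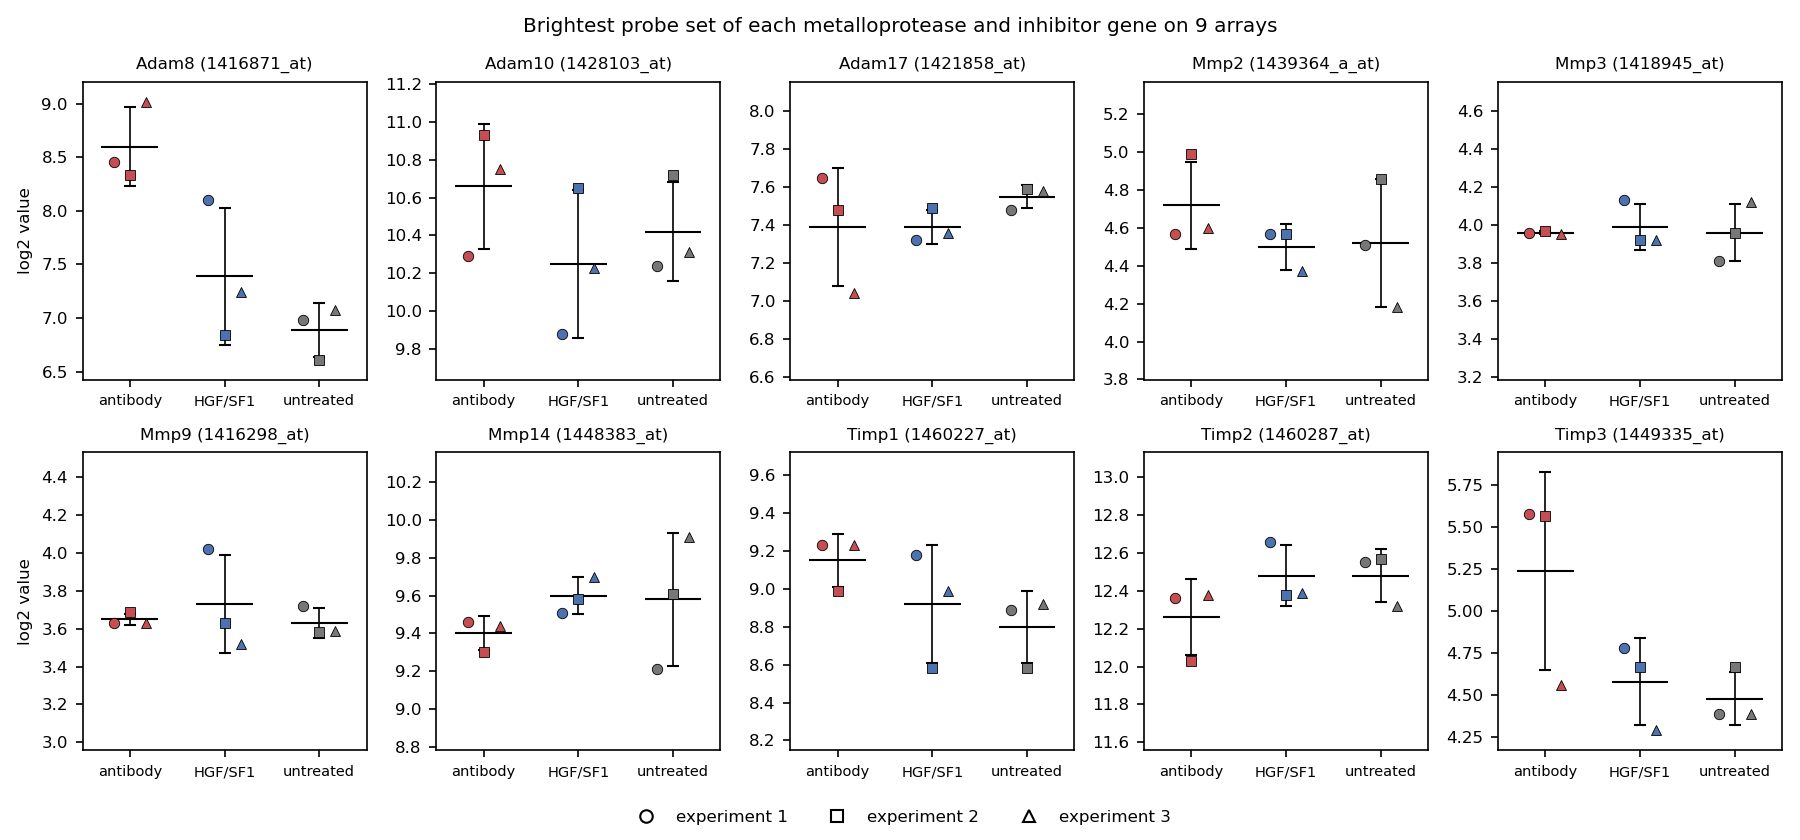
Log2 values of each member on the 9 arrays, by its brightest probe set, with antibody, HGF/SF1 and untreated arrays side by side and lines for the condition means. The antibody points of Adam8 (8.33 to 9.02) lie above the untreated points (6.61 to 7.08), while those of most other members share a range.

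As a leukocyte gene, Adam8 was set beside leukocyte markers. The neutrophil list had 3 of 8 markers above the median of all probe sets, S100a8, S100a9 and Ltf, with Csf3r, Cxcr2, Mpo and Elane below it. Its mean level was 6.00 to 6.22 on antibody arrays, 4.91 to 5.80 on HGF/SF1 arrays and 4.86 to 5.83 on untreated arrays. The macrophage list had 2 of 11 above, Cd68 and Cd14, with a mean level of 5.15 to 5.19 on antibody, 5.02 to 5.29 on HGF/SF1 and 4.96 to 5.01 on untreated arrays. S100a9, a calcium-binding protein also made by stressed epithelia, had 9.74, 9.70 and 10.46 after antibody, 7.00, 4.92 and 8.87 after HGF/SF1, and 5.38, 4.80 and 8.88 in untreated cells, higher than untreated by 3.61 (SE 1.19, adjusted p = 0.291), and not called without the untreated array of experiment 1 (3.13) or 2 (2.84) or the whole of experiment 1 (3.24) or 2 (2.97). Cd68, a lysosomal protein, had 6.66, 8.15 and 9.47 after antibody, 5.77, 5.43 and 6.49 after HGF/SF1, and 5.12, 5.20 and 6.17 in untreated cells, higher by 2.60 (SE 0.65, adjusted p = 0.207), and not called without experiment 2 (2.42). S100a9 was also high on the HGF/SF1 and untreated arrays of experiment 3 (8.87 and 8.88), where Adam8 had 7.24 and 7.08. Cd14, the other macrophage marker above the median, went the other way, with 12.34, 11.33 and 10.52 after antibody, 11.77, 12.09 and 11.68 after HGF/SF1, and 11.95, 12.18 and 11.68 in untreated cells, and was not called. S100a8 averaged 10.41 after antibody, 8.70 after HGF/SF1 and 7.75 in untreated cells, and Ltf 8.59, 7.58 and 7.69, neither called. Between antibody and untreated cells 1 marker of each list was called higher and none lower, against 4.68% and 7.92% of all genes. The list medians were 0.08 for the 8 neutrophil and 0.01 for the 11 macrophage markers. The part of S100a9 and Cd68 in the difference of Adam8 was not tested. The pan-leukocyte gene Ptprc averaged 3.24 after antibody, 3.32 after HGF/SF1 and 3.20 in untreated cells, below the median of all probe sets. A change in the number of cells of a type and a change in RNA per cell cannot be told apart in these cultures.

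Over the 9 arrays, the genes whose brightest probe set followed Adam8 most closely, among 6722 genes above the median, were Mapk9 (Pearson r = 0.975), Dhrs1 (0.966), Rala (0.951), Cyhr1 (0.937) and Cda (0.931). Mapk9 encodes the stress kinase JNK2 and Rala a small GTPase. The correlations are descriptions over 9 points that share 3 conditions and 3 experiments.

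Adam10 releases cadherins, Notch and many other proteins, and needs tetraspanins to leave the endoplasmic reticulum. Its brightest probe set (1428103_at) had values of 10.29, 10.93 and 10.75 after antibody, 9.88, 10.65 and 10.23 after HGF/SF1, and 10.24, 10.72 and 10.31 in untreated cells. In each experiment the HGF/SF1 array was the lowest of the 3 and the antibody array the highest. The second probe set (1450105_at) had 8.46, 9.12 and 9.60 after antibody, 8.09, 8.72 and 9.20 after HGF/SF1, and 8.47, 8.89 and 9.36 in untreated cells, with large steps between experiments. The third (1450104_at) had 8.16, 8.19 and 8.98 after antibody, 8.04, 7.63 and 8.34 after HGF/SF1, and 8.29, 7.74 and 8.89 in untreated cells.

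Antibody was above HGF/SF1 in 3 of 3 experiments on each of the 3 probe sets of Adam10, by 0.41 (SE 0.24), 0.39 (SE 0.37) and 0.44 (SE 0.34). Groups overlapped, and none was called without regard to the experiment (limma, adjusted p = 0.545, adjusted p = 0.754 and adjusted p = 0.672). All 3 were called with the experiment as a block (SE 0.11, 0.09 and 0.14; adjusted p = 0.105, adjusted p = 0.0903 and adjusted p = 0.156), where 19.8% of all probe sets were. None of the 3 was called with the experiment as a random block (SE 0.18, 0.27 and 0.25). The first, 1428103_at, was also called when experiment 1 lacked its antibody array (0.59) or experiment 2 its HGF/SF1 array (0.61). HGF/SF1 against untreated had differences of -0.17, -0.23 and -0.30 on the 3 probe sets, negative in 3 of 3 experiments on each, and 1450105_at alone was called with the block, though not with a random one. Antibody differed from untreated by 0.24, 0.15 and 0.13, none called. By its means, Adam10 stood in the order antibody, untreated, HGF/SF1 on all 3 probe sets, and only the ends of that order were called on all 3, under the fixed block alone.

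Adam17 is the sheddase of Tnf and of several ligands of the Egf receptor. Its brightest probe set (1421858_at) had values of 7.65, 7.48 and 7.04 after antibody, 7.32, 7.49 and 7.36 after HGF/SF1, and 7.48, 7.59 and 7.58 in untreated cells. The ranges overlapped, and antibody differed from untreated by -0.16 (95% confidence interval -0.51 to 0.19). On 1421859_at the values were 6.84, 6.90 and 6.87 after antibody, 6.69, 6.83 and 7.19 after HGF/SF1, and 7.24, 6.93 and 7.26 in untreated cells. Here all antibody arrays lay just below all untreated arrays, with a difference of -0.27 (SE 0.15), which was called only without the untreated array of experiment 2 (-0.38). The third probe set (1421857_at) differed by -0.14 after antibody. After HGF/SF1 the differences were -0.16, -0.24 and -0.09, lower in 3 of 3 experiments on each probe set and none called. Leaving out the HGF/SF1 array of experiment 3 gave -0.38 on 1421859_at, which was called.

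**Figure D3:**
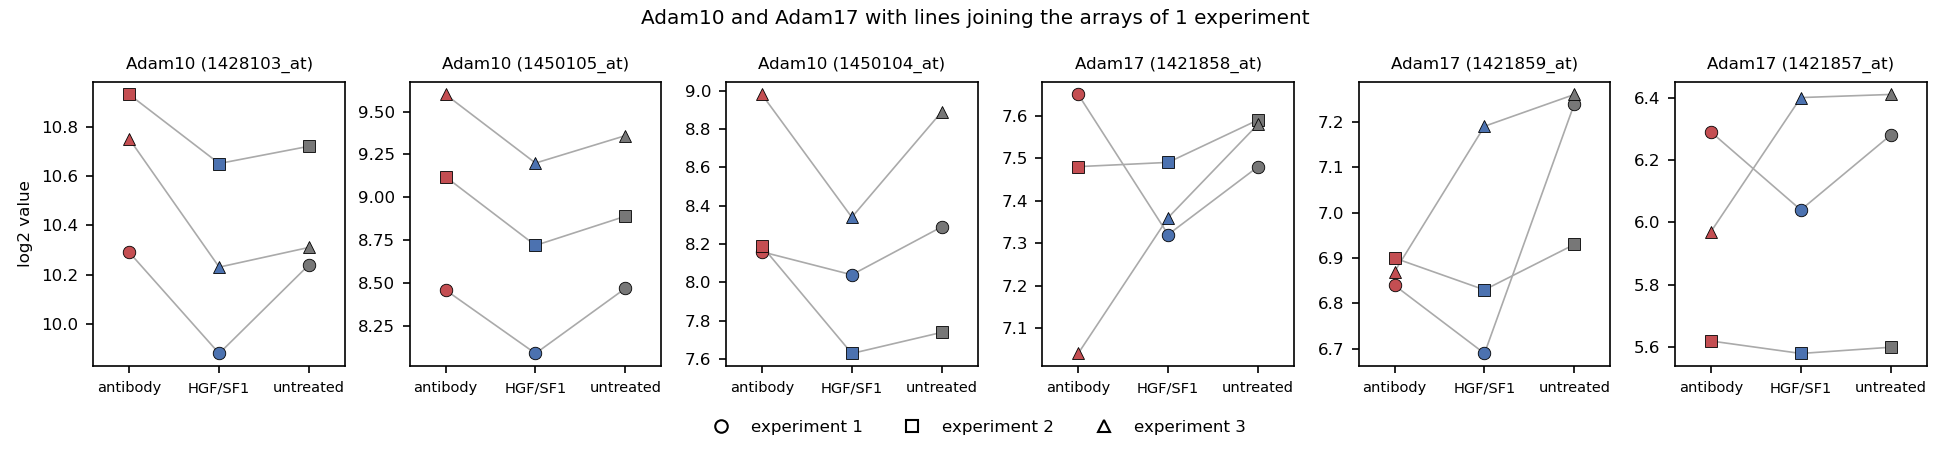
Log2 values of the 3 probe sets each of Adam10 and Adam17 by condition, with lines joining the arrays of 1 experiment. For Adam10 the lines run from a higher antibody value to a lower HGF/SF1 value in all 3 experiments (0.41, 0.28 and 0.52 on 1428103_at), while those of Adam17 cross.

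Mmp14 is a membrane-anchored collagenase that also activates pro-Mmp2, and it was the 1 Mmp member above the median of all probe sets. Its probe set 1448383_at had values of 9.46, 9.30 and 9.44 after antibody, 9.51, 9.58 and 9.70 after HGF/SF1, and 9.21, 9.61 and 9.91 in untreated cells. The untreated arrays spread most. Antibody differed from untreated by -0.18 (95% confidence interval -0.56 to 0.21), with 0.25, -0.31 and -0.47 in the 3 experiments. Experiment 1 decided this value: without it the difference was -0.39, and without its untreated array alone -0.36, and both were called. The other probe set (1416572_at) had 8.59, 7.92 and 8.49 after antibody, 8.57, 8.09 and 8.78 after HGF/SF1, and 8.45, 8.14 and 8.80 in untreated cells, a difference of -0.13 (95% confidence interval -0.71 to 0.45) between antibody and untreated.

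The secreted Mmp members lay below the median of all probe sets on every array. Mmp2, a gelatinase of stromal cells, had values of 4.57, 4.99 and 4.60 after antibody, 4.57, 4.57 and 4.37 after HGF/SF1, and 4.51, 4.86 and 4.18 in untreated cells on 1439364_a_at. The ranges overlapped, at 0.21 (95% confidence interval -0.22 to 0.63) between antibody and untreated. On 1416136_at of Mmp2 the difference between antibody and HGF/SF1 was 0.23, which was called only without the antibody array of experiment 1 (0.31). Mmp3, or stromelysin (1418945_at), had 3.96, 3.97 and 3.95 after antibody, 4.13, 3.92 and 3.92 after HGF/SF1, and 3.81, 3.96 and 4.12 in untreated cells, a difference of 0.00 between antibody and untreated (95% confidence interval -0.25 to 0.25). Its levels were flat across conditions. Mmp9, the gelatinase of neutrophils and macrophages, had 3.63, 3.69 and 3.63 after antibody, 4.02, 3.63 and 3.52 after HGF/SF1, and 3.72, 3.58 and 3.59 in untreated cells on 1416298_at. Antibody differed from untreated by 0.02 (95% confidence interval -0.29 to 0.33) and, on 1448291_at, by 0.06 (-0.16 to 0.29). For dim probe sets a difference in RNA may not show in the signal.

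Timp1 inhibits most secreted Mmps and Adam10. Its probe set (1460227_at) had values of 9.23, 8.99 and 9.23 after antibody, 9.18, 8.58 and 8.99 after HGF/SF1, and 8.89, 8.58 and 8.92 in untreated cells. All antibody arrays lay above all untreated arrays. The difference was 0.35 (SE 0.17, limma adjusted p = 0.494) and was not called, with 0.33, 0.41 and 0.31 in the 3 experiments. It was called under the block (adjusted p = 0.147), and also with arrays centred on their medians (0.41), with the compared arrays alone or without the HGF/SF1 array of experiment 2 (0.35 in both). Neither the difference of HGF/SF1 from untreated (0.12) nor that of antibody from HGF/SF1 (0.23, SE 0.17) was called.

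Timp2 was lower after antibody on several probe sets. On 1433662_s_at the values were 11.35, 11.23 and 11.28 after antibody, 11.64, 11.79 and 11.42 after HGF/SF1, and 11.93, 11.60 and 11.72 in untreated cells. All antibody arrays lay below all HGF/SF1 and all untreated arrays. The difference from untreated was -0.46 (SE 0.13, adjusted p = 0.226), or 1.38-fold lower, and it was called in all 19 alternative settings run. The suffix of this probe set marks probes that may match other transcripts too.

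On 1450040_at of Timp2 the values were 9.85, 9.77 and 9.91 after antibody, 10.08, 10.38 and 9.98 after HGF/SF1, and 10.68, 10.33 and 10.18 in untreated cells, with antibody below both other conditions on every array. The difference from untreated was -0.56 (SE 0.16, adjusted p = 0.229), or 1.47-fold lower. Without experiment 1 it was -0.42 and not called. On 1454677_at they were 11.57, 11.13 and 11.88 after antibody, 11.78, 12.09 and 12.18 after HGF/SF1, and 12.03, 12.36 and 11.95 in untreated cells. The difference was -0.59 (SE 0.21, adjusted p = 0.320), or 1.50-fold lower. It rested mainly on experiment 2, without which it was -0.27 and not called. Leaving out the antibody array of experiment 2 (-0.39), the untreated array of experiment 2 (-0.47) or experiment 1 (-0.65) also ended the call.

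The remaining probe sets of Timp2 were not called. The brightest (1460287_at) had values of 12.36, 12.03 and 12.38 after antibody, 12.66, 12.38 and 12.39 after HGF/SF1, and 12.55, 12.57 and 12.32 in untreated cells, a difference of -0.22 (SE 0.14). On 1420924_at the values were 9.42, 8.86 and 9.83 after antibody, 9.61, 9.38 and 10.05 after HGF/SF1, and 10.17, 9.48 and 10.17 in untreated cells. Antibody was the lowest in each experiment, and the difference of -0.57 (SE 0.30) was called with the experiment as a block (SE 0.13, adjusted p = 0.0935). It was also called without the antibody array of experiment 3 or the untreated array of experiment 2 (-0.80 for both). The dim 1437081_at differed by -0.05. The mean of all 6 probe sets was lower after antibody, with a difference of -0.41 (SE 0.12) from untreated and -0.28 (SE 0.12) from HGF/SF1, both called.

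Against HGF/SF1, Timp2 after antibody was lower on 1454677_at (-0.49, limma adjusted p = 0.363) and 1433662_s_at (-0.33, adjusted p = 0.326). Neither call held with arrays centred on their medians (-0.47 and -0.30), and both were lost without experiment 1 (-0.63 and -0.35) or experiment 2 (-0.25 and -0.21). Leaving out single arrays ended the call of 1454677_at for the antibody arrays of experiments 1 (-0.52) and 2 (-0.29), the HGF/SF1 arrays of experiments 2 (-0.45) and 3 (-0.41), and the untreated arrays of experiments 1 and 3 (-0.49 for both). For 1433662_s_at they were the antibody arrays of experiments 2 (-0.30) and 3 (-0.33) and the HGF/SF1 arrays of experiments 1 (-0.32) and 2 (-0.24). Under the block, 1454677_at was not called and 1420924_at was (-0.31), and under a random block this was the other way round. On 1450040_at the difference was -0.30, called only without the untreated array of experiment 1. HGF/SF1 differed from untreated by between -0.26 and 0.00 over the 6 probe sets, none called.

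**Figure D4:**
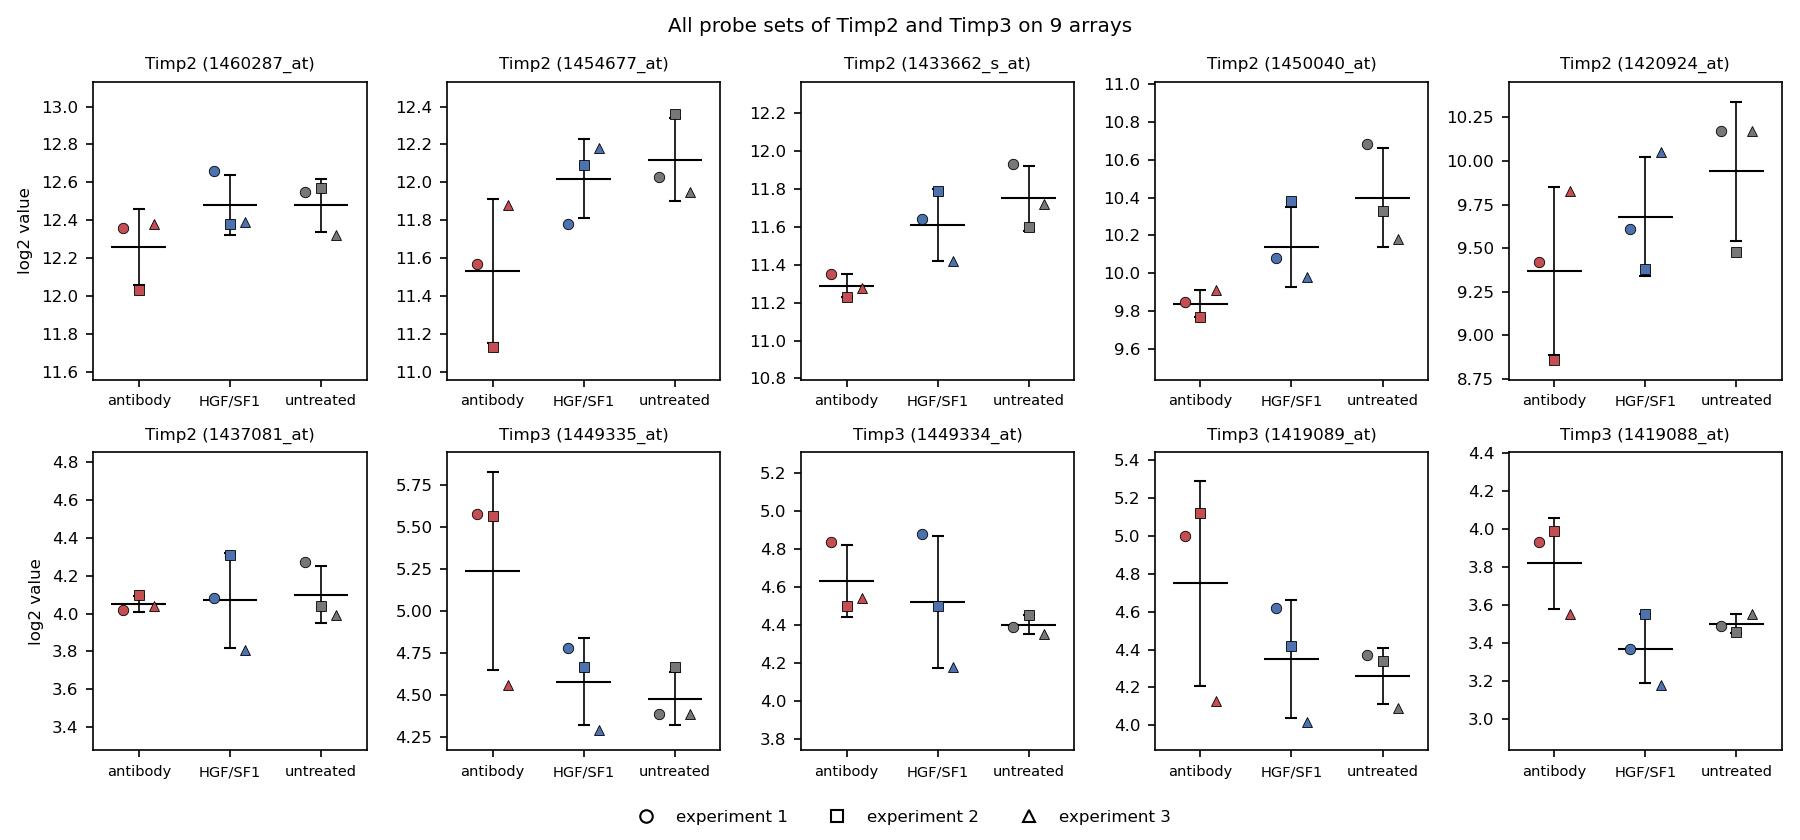
Log2 values of the 6 probe sets of Timp2 and the 4 of Timp3 on antibody, HGF/SF1 and untreated arrays, with lines for the condition means and bars of 1 SD (n = 3). The antibody points of Timp2 lie below the untreated points on 1433662_s_at (11.23 to 11.35 against 11.60 to 11.93). Timp3 is dim throughout, with its highest antibody values in experiments 1 and 2 on all probe sets but 1449334_at (4.84, 4.50 and 4.54).

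Timp3 binds to the matrix and is the Timp that inhibits Adam17. All 4 of its probe sets lay below the median of all probe sets. On 1449335_at the values were 5.58, 5.57 and 4.56 after antibody, 4.78, 4.67 and 4.29 after HGF/SF1, and 4.39, 4.67 and 4.39 in untreated cells. Antibody was well above untreated in experiments 1 and 2 (1.20 and 0.90) and near it in experiment 3 (0.17). The difference was 0.75 (SE 0.27, adjusted p = 0.336), or 1.69-fold. It was no longer called without the antibody array of experiment 1 (0.58) or 2 (0.59), the untreated array of experiment 1 (0.71) or 3 (0.71), or the whole of experiment 1 (0.53) or 2 (0.68).

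The probe set 1419089_at of Timp3 had the same shape, with values of 5.00, 5.12 and 4.13 after antibody, 4.62, 4.42 and 4.02 after HGF/SF1, and 4.37, 4.34 and 4.09 in untreated cells. Its difference of 0.49 from untreated (adjusted p = 0.552) was called under the block (adjusted p = 0.174) and without experiment 3 (0.71) or its antibody array (0.80). The dimmest, 1419088_at, had 3.93, 3.99 and 3.55 after antibody, 3.37, 3.55 and 3.18 after HGF/SF1, and 3.49, 3.46 and 3.55 in untreated cells. It differed by 0.33 from untreated (adjusted p = 0.427). This was called with the block, with centring (0.38), with an intensity trend in the prior (0.33), without experiment 3 (0.49) or its antibody array (0.46), or leaving out the HGF/SF1 array of experiment 2 or 3 (0.33 for both). The fourth, 1449334_at, differed by 0.23. HGF/SF1 differed from untreated by between -0.13 and 0.12, none called.

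Against HGF/SF1, Timp3 after antibody was higher on 1419088_at by 0.46 (adjusted p = 0.238), with the groups apart. Without experiment 1 it was 0.41 and not called. On 1449335_at it was higher by 0.66 (adjusted p = 0.360). This call was lost without any 1 of 7 arrays: the antibody arrays of experiments 1 (0.48) and 2 (0.49), the HGF/SF1 arrays of experiments 2 (0.70) and 3 (0.51), and the untreated arrays of experiments 1, 2 and 3 (0.66 for each), which enter only through the shared spread. Without experiment 1 it was 0.58 and without experiment 2 it was 0.54, neither called, and the compared arrays alone did not call it either (0.66). On 1419089_at it was 0.40, which was called with the block (adjusted p = 0.221), though not with a random one, and without experiment 3 (0.54) or its antibody array (0.71). The mean of all 4 probe sets of Timp3 was higher after antibody by 0.45 (SE 0.19) than in untreated cells, which was called, and by 0.40 (SE 0.19) than after HGF/SF1, which was not.

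Few other genes of these families were called. Of 14 measured other Mmps, of 7 measured Adamts proteases and of 9 measured other inhibitors, none was called between antibody and untreated cells, with median differences of 0.09, 0.10 and 0.01, against a median of 0 over all genes, of which 4.68% were called higher and 7.92% lower. No alternative setting called more than 1 gene in any of these 3 lists between antibody and untreated cells. Of 21 measured other Adams, Adam11, a family member without protease activity, was lower, with a difference of -0.24 (SE 0.10, adjusted p = 0.420) at a dim signal, a call that held in 5 of 18 settings. It was lost with centring (-0.18), without any single array but the antibody array of experiment 1 (-0.27 to -0.16), and without any experiment (-0.29 to -0.19). Under the block 2 of these 21 were lower, where 18.2% of all probe sets were called in either direction. After HGF/SF1, 1 of the 14 other Mmps was called, against 0.839% of all genes, and no probe set had an adjusted p under 0.05. Mmp20, the protease of tooth enamel, was lower, with a difference of -0.39 (SE 0.16), also dim, and called in 6 of 18 settings. Single arrays whose loss ended it were the antibody arrays of experiments 2 and 3, all HGF/SF1 arrays and the untreated arrays of experiments 1 and 3 (-0.41 to -0.22), as did leaving out experiment 1 (-0.40) or 3 (-0.22). With the experiment as a block, 2 of the 14 other Mmps were higher and 1 lower after HGF/SF1 than in untreated cells. The block called 1.82% of all probe sets in that comparison, in either direction. Only 2 of the 14 Mmps, 2 of the 21 Adams, none of the Adamts proteases and 1 of the 9 inhibitors lay above the median of all probe sets.

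Regulators of Adam10 and Adam17, among them genes that bring these proteases to the cell surface or mature them, were measured for 14 of 15 listed. After antibody 4 were lower than in untreated cells and none higher, against 7.92% of all genes lower, with a list median of -0.34. Under the block 7 were lower, where 18.2% of all probe sets were called in either direction. Without experiment 2 none was lower, with a list median of -0.19. Single arrays whose absence changed the count by over 1.5 times were the antibody and the untreated array of experiment 2, with 2 lower without either. Tspan15, a tetraspanin partner of Adam10, had 7.74, 7.69 and 7.88 after antibody, 7.41, 8.45 and 8.38 after HGF/SF1, and 8.30, 8.56 and 8.62 in untreated cells. Antibody was lower, with a difference of -0.72 (SE 0.26, adjusted p = 0.323), and the HGF/SF1 array of experiment 1 was low as well. The call held in 13 of 19 alternative settings and was lost without experiment 2 (-0.65) or 3 (-0.71), or without the antibody array of experiment 1 (-0.71) or 2 (-0.68) or the untreated array of experiment 2 (-0.69) or 3 (-0.66). Tspan14, of the same family, had 7.60, 7.54 and 7.93 after antibody, 7.93, 7.99 and 8.25 after HGF/SF1, and 7.84, 8.05 and 8.26 in untreated cells, lower after antibody, with a difference of -0.36 (SE 0.16, adjusted p = 0.418). This call held in 7 of 19 settings. It was lost with centring (-0.31), without the antibody or HGF/SF1 array of experiment 1 or 2, the untreated array of experiment 2 or 3 (-0.36 to -0.26), or experiment 1 (-0.42) or 2 (-0.29).

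Frmd8, which stabilises the iRhom-Adam17 complex at the cell surface, had 7.52, 7.09 and 7.58 after antibody, 8.12, 7.81 and 8.01 after HGF/SF1, and 7.90, 7.90 and 7.77 in untreated cells. It was lower after antibody than in untreated cells by -0.46 (SE 0.15, adjusted p = 0.278). The difference from HGF/SF1 was -0.58 (adjusted p = 0.177), which was called in all 19 settings. Pcsk7, a proprotein convertase that can cut Adam prodomains, had 7.10, 6.82 and 6.57 after antibody, 7.25, 7.19 and 7.32 after HGF/SF1, and 7.22, 7.23 and 7.30 in untreated cells, lower, with a difference of -0.42 (SE 0.13, adjusted p = 0.281). Without experiment 2 the difference from untreated was -0.29 for Frmd8 and -0.42 for Pcsk7, and without experiment 3 it was -0.26 for Pcsk7, none of them called. For both genes all antibody arrays lay below all others. After HGF/SF1 none of the 14 was called, and the list median was 0.

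**Figure D5:**
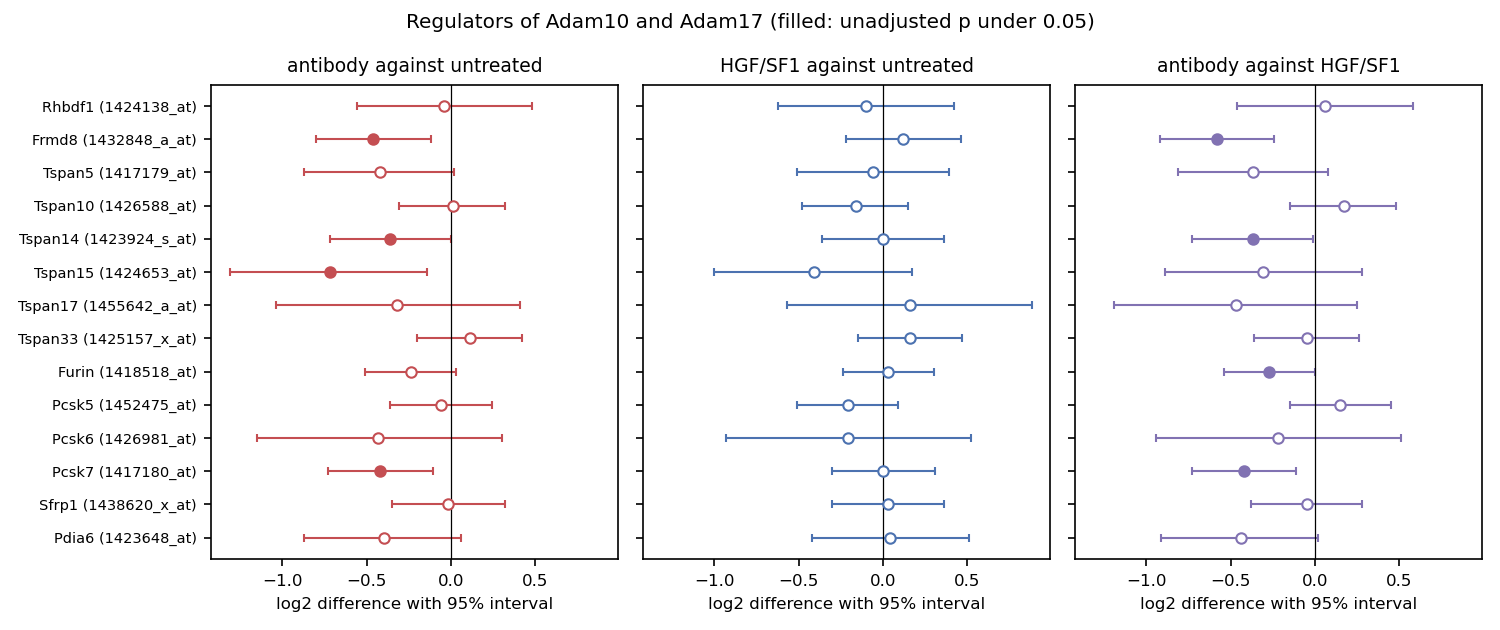
Log2 differences of the 14 measured regulators of Adam10 and Adam17, 1 probe set a gene, with 95% confidence intervals (limma), in a panel for each pair of conditions and with filled points for called genes. In the panel of antibody against untreated, Tspan15 (-0.72), Frmd8 (-0.46), Pcsk7 (-0.42) and Tspan14 (-0.36) are filled, all to the left of 0, and no point is filled in the panel of HGF/SF1 against untreated.

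Of the proteins that Adam10 or Adam17 shed, 33 of 35 were measured, and 1 was higher and 1 lower after antibody than in untreated cells, against 4.68% of all genes higher and 7.92% lower, with a list median of -0.05. Cxcl16, a membrane-bound chemokine shed by Adam10, had 8.36, 8.99 and 9.77 after antibody, 8.49, 8.17 and 8.13 after HGF/SF1, and 7.97, 8.21 and 8.21 in untreated cells, higher than untreated by 0.91 (SE 0.31, adjusted p = 0.302). This call was lost without experiment 2 (0.98), experiment 3 (0.59) or the untreated array of experiment 1 (0.83). Icam1, a leukocyte adhesion receptor, had 7.72, 5.21 and 5.16 after antibody, 7.77, 7.89 and 7.74 after HGF/SF1, and 7.74, 8.08 and 7.75 in untreated cells. Its difference of -1.83 (SE 0.60, adjusted p = 0.286) came from experiments 2 and 3, while the antibody array of experiment 1 stood at the untreated level. It was not called without the antibody array of experiment 2 or 3 (-1.42 or -1.39), or without the whole of experiment 2 or 3 (-1.31 or -1.44). With the block 1 was higher and 3 lower, where 18.2% of all probe sets were called in either direction. These counts moved with single arrays, to 3 higher and 2 lower without the antibody array of experiment 1, 1 and 0 without that of experiment 2 or 3, 0 and 2 without the untreated array of experiment 1, and 1 and 2 without that of experiment 3 or any HGF/SF1 array. Leaving out experiment 1 gave 1 higher and 3 lower, experiment 2 gave 0 and 1, and experiment 3 gave 0 and 0.

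Of 15 measured activators and surface partners of Mmps, Itgav, the αv integrin subunit, was higher after antibody, at 10.59 to 11.51, against 10.41, 10.43 and 10.18 after HGF/SF1 and 10.08, 10.44 and 10.55 in untreated cells (difference from untreated 0.68, SE 0.23, adjusted p = 0.307). It was called in 15 of 19 settings, and was not called without the antibody array of experiment 2 (0.44), the untreated array of experiment 1 (0.54), experiment 2 (0.48) or experiment 3 (0.79). All 3 probe sets of Itgav had a positive difference, and 1 of them was called. Itgav was the 1 gene of the list called, or 1 of 15, against 4.68% of all genes higher. Under the block 4 of the 15 genes were higher and 1 lower, and as a random block 1 and 1. The fixed block called 18.2% of all probe sets in either direction, and the random one 16.3%. The count of higher genes was 3 without the untreated array of experiment 3, experiment 1 or experiment 3, and 0 without the antibody array of experiment 2, the untreated array of experiment 1 or the whole of experiment 2. A single gene was lower without the antibody array of experiment 1 or 3 or the HGF/SF1 array of experiment 1. Of 20 measured transcription factors known to act on Mmp genes, 5 were higher and none lower after antibody, against 4.68% of all genes higher. Under the block 6 were higher and 1 lower, against the same 18.2% of all probe sets. Without the antibody array of experiment 3 there were 1 higher and 2 lower, without that of experiment 2 there were 2 and 1, and without that of experiment 1 there were 4 and 1. The untreated array of experiment 1 left 3 higher and 1 lower when taken out, and that of experiment 2 left 2 and 0. Leaving out experiments 1, 2 and 3 in turn gave 3, 2 and 3 higher and 1, 0 and 1 lower. The AP-1 member Fosl2 had 5.94, 9.70 and 9.78 after antibody, 5.79, 5.58 and 6.03 after HGF/SF1, and 5.73, 5.64 and 6.02 in untreated cells. Antibody differed from untreated by 2.68 (SE 0.88, adjusted p = 0.291), again without a shift on the antibody array of experiment 1. Fosl2 was not called without the antibody array of experiment 2 or 3 (2.06 or 2.02) or without the whole of experiment 2 or 3 (1.99 or 2.13). On the antibody array of experiment 1 Adam8 stood at 8.46, between the 8.33 and 9.02 of the other antibody arrays, and Timp2 on 1433662_s_at at 11.35. The part of Fosl2 in the differences of Adam8 and Timp2 was not tested. Hif1a was higher by 1.02 (adjusted p = 0.199) and called in all 19 settings. Snai1, at a dim signal, was higher by 0.56 (adjusted p = 0.336) and called in 12 of 18. Snai1 lost its call without the antibody array of experiment 1 (0.50) or 3 (0.38), the untreated array of experiment 2 (0.51) or 3 (0.55), or experiment 1 (0.54) or 3 (0.38). Runx1 was higher by 0.63 (adjusted p = 0.339) on its brightest probe set in 13 of 19 settings. However, 2 of its 5 probe sets had a positive and 3 a negative difference, with 1 called higher and 1 called lower. Runx1 lost its call without the antibody array of experiment 2 (0.53) or 3 (0.46), the untreated array of experiment 1 (0.63) or 2 (0.54), or experiment 2 (0.44) or 3 (0.56). Cebpb was the fifth, at 0.87 (adjusted p = 0.377) and in 13 of 19 settings, and is named here after its value was seen. It lost its call without the antibody array of experiment 2 (0.91) or 3 (0.60), the untreated array of experiment 1 (0.75) or 2 (0.68), or experiment 1 (0.99) or 2 (0.72). After HGF/SF1 none of these factors, partners or shed proteins was called.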

How the data were processed

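RNA of MLP29 cells was measured on 9 arrays, 3 a condition. The deposited table holds a log2 value for each probe set and array, which the authors made in affylmGUI with rma background correction. Normalization between arrays and the summary method are not given in the sources used here, so values were used as deposited. The table holds 22690 rows, of which 64 controls were left out. The annotation names 1 gene for 20380 of the remaining 22626 probe sets, several for 691 and none for 1555. A listed gene takes its brightest probe set. A mean per condition was fitted to all 9 arrays with limma 3.58.1 in R 4.3.3 (eBayes, 6 residual degrees of freedom, prior 2.39). The script was tested on simulated data. Figures were drawn with matplotlib 3.10.9.

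Sample titles share a day across conditions, so experiments pair the arrays. After subtracting condition means, r was 0.0958 to 0.591 between arrays of the same experiment and -0.682 to 0.0308 between arrays of others. The second range includes pairs of arrays of the same condition. Subtracting their own mean pushes such pairs towards a negative r, so the contrast of the ranges does not measure the pairing alone. Experiments are numbered in the order of the samples. The members and lists were chosen with earlier results of these data known. All members were named, and in each list up to 4 genes called after antibody and 2 after HGF/SF1, by p, with the 5 genes most correlated with the member of smallest p. Alternatives were the experiment as a fixed or random block, centring, quantile normalization, bright probe sets only, an intensity trend, the compared arrays only, the mean over a gene's probe sets, and leaving out each array or experiment. Running them on list genes was decided after seeing the data.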

Additional observations from a re-analysis of the deposited data

How the results depend on the processing

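With the experiment as a replicate block, member probe sets called numbered 9 for antibody against untreated (5 without it), 1 for HGF/SF1 against untreated (0) and 9 for antibody against HGF/SF1 (5). All probe sets called with the block numbered 4114, 411 and 4490, in place of 2674, 192 and 2978. As a random block, it gave 9 members for antibody against untreated, 0 for HGF/SF1 against untreated and 5 for antibody against HGF/SF1, and 374 probe sets for HGF/SF1 against untreated. The 4 calls of Adam10 that the fixed block gave were absent with the random one. At an adjusted p under 0.05 (limma), 0 members were called after antibody against either other condition. For antibody against HGF/SF1, centring gave 3 members, the compared arrays alone 3, and probe sets above the median alone 1. That filter left 14 probe sets called for HGF/SF1 against untreated.

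Leaving out 1 array or 1 experiment gave 3 to 8 members and 912 to 4014 probe sets for antibody against untreated, 0 to 1 and 123 to 366 for HGF/SF1 against untreated, and 1 to 5 and 1257 to 4114 for antibody against HGF/SF1. For antibody against untreated there were 3 members without experiment 1, experiment 2 or its antibody array, and 8 without the antibody array of experiment 3. For HGF/SF1 there was 1 without its array of experiment 2 or 3. For antibody against HGF/SF1 there was 1 without experiment 1, 2 without experiment 2 or its antibody array, and 3 when the HGF/SF1 array of experiment 2 or 3 or the untreated array of experiment 3 was left out. No called member value changed sign in any setting. Adam8 was called for antibody against untreated in all 19 settings, between 1.50 and 1.85. The number of arrays and the dim signal of Mmp2, Mmp3, Mmp9 and Timp3 limit what could be seen.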
